A study of Arabidopsis thaliana with 16 samples.

Results

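The arrays described here compared leaves with roots within a single Arabidopsis thaliana genotype, glu1-2, a line with a T-DNA insertion in Fd-GOGAT1 (GLU1, AT5G04140), the gene of the main ferredoxin-dependent glutamate synthase. All 4 arrays of glu1-2 leaves and all 4 arrays of glu1-2 roots were used, 8 of the 16 Affymetrix ATH1 arrays of the study, and 22266 of 22279 probe sets were tested once the 13 control probe sets had been set aside. The other 8 arrays, leaves and roots of the wild type Col-0, served to show where the organ difference of the mutant departed from that of the wild type. Plantlets of both genotypes grew in vitro on Murashige and Skoog medium with sucrose and ammonium nitrate under a 16 h photoperiod, and were harvested at 18 days, 2 h after the light came on. RNA came from 500 mg of leaves or 300 mg of roots per sample. The mutant is 1 insertion line. The study calls the 4 samples of a group biological replicates, and p-values here measure the spread between them.

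Leaves and roots carry out different parts of nitrogen and carbon metabolism. In leaves, chloroplasts fix carbon dioxide, and photorespiration releases ammonium that glutamine synthetase and Fd-GOGAT return to glutamate. Roots take up water, nitrate, ammonium and iron, extend by loosening their cell walls, seal their endodermis and xylem with lignin and suberin, and in Arabidopsis store a beta-glucosidase, PYK10, in endoplasmic reticulum bodies. Photosynthesis genes are normally kept low in roots.

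The values are the RMA intensities of the authors, on a linear scale, and every difference below is leaf minus root on the log2 scale, so that a positive value is higher in leaves. Median intensities were 101 to 102 on the leaf arrays and 106 to 109 on the root arrays of glu1-2, and 30.6% of the values of these 8 arrays lay under 32. This background bound was chosen here and not measured, and a signal under it may not be separated from background. Where the lower group had a mean under 32, the log2 difference is given as measured and, for the 10 largest differences each way, the fold is also given as a bound, with every intensity under 32 set to 32. Levels of different probe sets were not compared with each other. In RNA of whole organs, fewer cells of a type and less RNA per cell cannot be told apart.

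Most probe sets were called different between leaves and roots of glu1-2, though the median absolute log2 difference was 0.37. In leaves 7517 probe sets were higher (33.8% of those tested) and in roots 7495 (33.7%), at a Storey q under 0.01 in a limma fit over the 8 arrays, so that 67.4% were called in either direction. The even balance depended on the scaling, since 9983 were higher in leaves and 6974 in roots once the arrays were shifted to the same median. With intensities under 32 set to 32, 4418 were higher in leaves and 5831 in roots, so that most probe sets were no longer called. With a difference of at least 2-fold required as well, 2543 probe sets were higher in leaves (11.4%) and 2618 in roots (11.8%). A difference of at least 8-fold was found for 462 probe sets towards leaves and 518 towards roots. For 6273 probe sets all 4 leaf arrays lay above all 4 root arrays, and for 7104 all root arrays lay above all leaf arrays, together 60.1% of those tested. The median difference over all probe sets was 0.05, so the arrays as normalized by the authors were nearly centred between the organs. Among the probe sets at least 2-fold apart, the lower organ had a mean under 32 for 682 of those higher in leaves and 940 of those higher in roots.

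The targeted gene was examined first. The platform annotation names no probe set for Fd-GOGAT1, and its probe set was taken as the only one that lay within 0.05 of the values given for this gene in the study. These values were the log2 levels in leaves and roots of Col-0 and the difference between genotypes in each organ. They fix the organ difference of both genotypes almost fully, so the differences and tests below describe the chosen probe set and are no independent evidence. In glu1-2 the 4 leaf arrays gave intensities of 35, 29, 39 and 35, and the 4 root arrays 21, 20, 23 and 30. In Col-0 the leaf arrays gave 2472, 1245, 1948 and 1924 and the root arrays 36, 33, 33 and 31. The organ difference was thus 5.79 in Col-0 against 0.56 in glu1-2, where leaf and root arrays overlapped at 29 and 30 (exact permutation test, two-sided, p = 0.0571, against a smallest possible p of 0.0286 with 4 against 4; limma over all probe sets, q = 0.000438). All 8 mutant arrays lay close to or under the background bound of 32.

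The organ labels were then set against marker genes. Of 35 measured members of 9 lists of leaf functions (photosystems, antenna, thylakoid electron transport, Calvin cycle, photorespiration, tetrapyrroles, carotenoids, stomata and leaf polarity), 32 were higher in leaves, against 33.8% of all probe sets, 2 were higher in roots and 1 did not pass. Of 12 measured members of 6 lists of root functions (root hair, endodermis, root meristem and cap, lateral root, iron uptake and root triterpenes), 9 were higher in roots, against 33.7% of all probe sets, 2 were higher in leaves and 1 did not pass. The design named fewer lists as markers. For roots these were root hair (2 of 2 higher in roots), endodermis (1 of 1), root meristem and cap (1 of 2) and iron uptake (2 of 4). For leaves they were photosystems, antenna, Calvin cycle, stomata and leaf polarity. The list of nitrate and ammonium uptake, kept outside this tally, had 1 measured member, NRT2.5, which did not pass. The summed intensity of the 4 measured photosystem genes was 22442 to 27611 on leaf arrays and 3041 to 3218 on root arrays, and that of the root hair genes EXPA7 and EXPA18 was 60 to 82 on leaf arrays and 550 to 670 on root arrays. No member of the seed and flower list had a named probe set. A list member counts as measured where the platform annotation gives its probe set exactly 1 gene, which holds for 13216 of the probe sets tested, so each list covers part of its pathway.

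Genes of the photosynthetic apparatus lay on the leaf side. All 4 photosystem genes, all 3 antenna genes and both thylakoid electron transport genes measured were higher in leaves. PSBY, a small subunit of photosystem II, read 6860, 5960, 6868 and 6646 on the leaf arrays and 577, 620, 624 and 605 on the root arrays, a difference of 3.44 (SE 0.0723, limma, q = 3.51e-13). The root arrays lay well above 32 for this gene, and the groups were far apart. The photosystem I genes PSAN and PSAE1 differed by 3.09 and 3.04 and the photosystem II gene PSBW by 2.51. Of the 3 genes for the minor antenna protein CP29, LHCB4.2 differed by 3.09, LHCB4.1 by 2.34 and LHCB4.3 by 1.91. ATPC1, the gamma subunit of the chloroplast ATP synthase, differed by 2.47 and PGRL1B, a protein of cyclic electron flow, by 0.96.

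Carbon fixation and photorespiration followed the same direction with a single exception. All 4 measured Calvin cycle genes were higher in leaves, with SBPASE (sedoheptulose-bisphosphatase) at 3.75, PRK (phosphoribulokinase) at 3.29, RCA (Rubisco activase) at 2.81 and PGK2 (phosphoglycerate kinase) at 0.66. RCA read 11174, 9008, 11437 and 10174 in leaves and 1451, 1481, 1539 and 1445 in roots. Of 6 photorespiration genes 5 were higher in leaves. PLGG1, the plastid transporter of glycolate and glycerate, had the largest difference of these, 5.05 (SE 0.134, limma, q = 1.81e-12), with 2098, 1728, 2201 and 2088 in leaves and 46, 68, 73 and 60 in roots. The peroxisomal hydroxypyruvate reductase HPR1 differed by 3.12, GDCH3 by 3.08, GLDT by 1.7 and the glycerate kinase GLYK by 0.72. The exception was GDCH2, which like GDCH3 is annotated as an H protein of glycine decarboxylase. It read 557, 547, 558 and 531 in leaves and 2577, 2651, 2677 and 2422 in roots, a difference of -2.23 (SE 0.066, limma, q = 4.3e-12), so that the 2 genes of this subunit named by the annotation had opposite organ differences.

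Tetrapyrrole synthesis, which leads to chlorophyll and haem, had 7 of 8 measured members higher in leaves, with a median of 2.19. CHLI2, a subunit of the chelatase that inserts magnesium, read 442, 441, 436 and 456 in leaves and 35, 30, 32 and 32 in roots (3.78, SE 0.0697, limma, q = 1.68e-13). The uroporphyrinogen decarboxylases HEME1 and HEME2 differed by 2.61 and 2.47, the magnesium-protoporphyrin methyltransferase CHLM by 2.35 and the protochlorophyllide oxidoreductase PORB by 2.04. HEMA2, a glutamyl-tRNA reductase, did not pass, at 114 to 121 in leaves and 123 to 141 in roots (-0.15, limma, q = 0.0165). The lycopene cyclase LYC, the only carotenoid gene measured, was 1.27 higher in leaves.

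**Figure D1:**
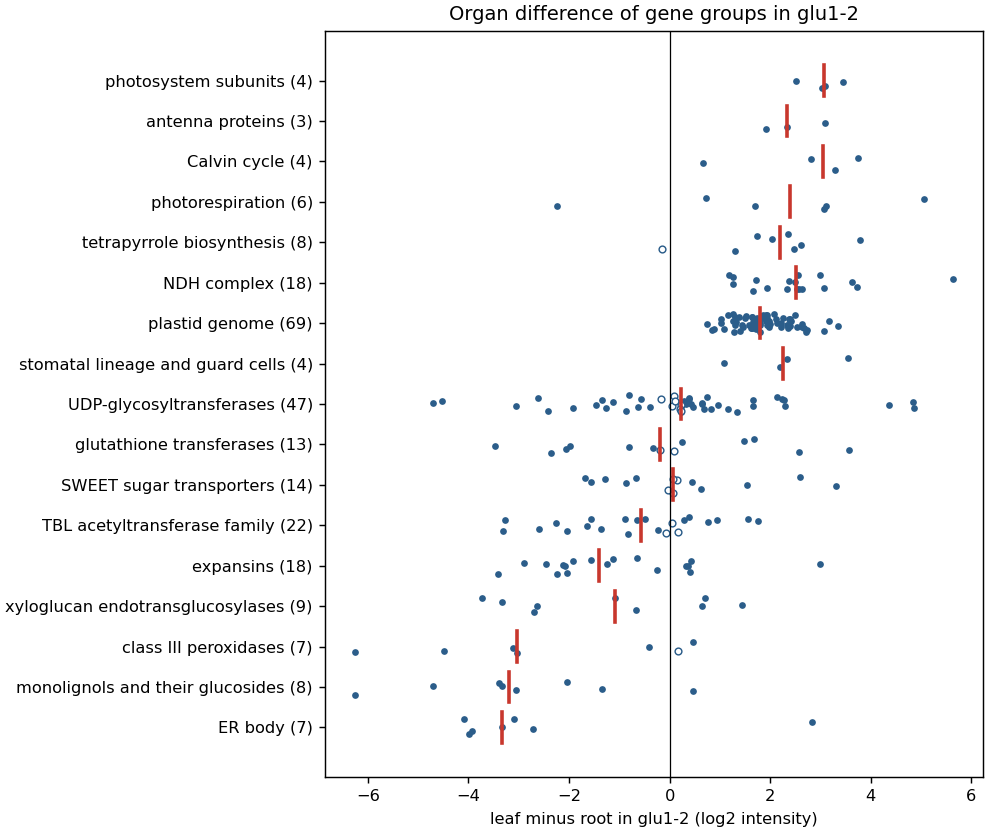
Difference between leaf and root in glu1-2 (horizontal axis, log2 intensity) of each measured gene in 17 groups, with the number of genes in brackets. Filled dots passed q under 0.01, open dots did not, red bars are group medians, and vertical scatter within a row has no meaning; the photosynthesis groups lie right of 0 except for GDCH2 and HEMA2, and the ER body genes lie left of 0 except for JAL23.

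The chloroplast NAD(P)H dehydrogenase-like complex, which carries electrons around photosystem I, was among the groups added after values had been seen. All 18 genes with symbols of its subunits (ndh, Ndh) or of chlororespiratory reduction factors (CRR) were at least 2-fold higher in leaves. The median was 2.52, and 11.4% of all probe sets were at least 2-fold higher in leaves. NdhL read 794, 572, 789 and 770 in leaves and 18, 13, 14 and 14 in roots, a difference of 5.63 (SE 0.126, limma, q = 5.36e-13). The root arrays were all under 32 here. Among the other nuclear members, CRR42 differed by 3.73, NdhN by 3.62, CRR21 by 2.99 and NdhS by 2.55.

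All 69 genes measured of the plastid genome were higher in leaves of glu1-2, 66 of them at least 2-fold, with a median of 1.79. The plastid-encoded ndh genes of the NDH complex are among the 69, so the groups overlap. Over all probe sets 33.8% were higher in leaves and 11.4% at least 2-fold. The leaf arrays were not alike in these transcripts. Their summed intensity was 140409, 112864, 77315 and 120572 on leaf replicates 1 to 4, against 40886, 34913, 37570 and 27669 on root replicates 1 to 4. Leaf replicate 3 was the lowest leaf array for 51 of the 69 genes, with a median deviation of -0.50 from the leaf mean. Root replicate 4 was the lowest root array for 48 of them, with a median deviation of -0.28. In Col-0 the 4 leaf arrays were closer together, at 143141 to 163182.

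The genes most affected by leaf replicate 3 included members of several complexes. psaA, a reaction centre protein of photosystem I, read 789, 538, 51 and 435 in leaves and 39, 32, 46 and 25 in roots, a difference of 3.17 (SE 0.658, limma, q = 0.000222). Without leaf replicate 3 it was 4.04 (SE 0.225, q = 7.48e-09). psbD, a reaction centre protein of photosystem II, read 664, 474, 123 and 780 in leaves and 58 to 69 in roots, with a difference of 2.72 that became 3.30 without that array. psbB, an inner antenna protein of photosystem II, moved from 3.34 to 3.86, ndhA from 2.63 to 3.24, ndhH from 2.49 to 3.14 and rpl16, a ribosomal protein, from 1.97 to 2.7. psbA, the D1 protein of photosystem II, moved the other way, from 2.36 to 2.2. Without leaf replicate 3, all 69 genes still passed towards leaves, 65 of them at least 2-fold, and the median was 1.99. Without root replicate 4 all 69 passed, 64 at least 2-fold, with a median of 1.71. Both exclusions were chosen after the values were seen. The array labels do not tell leaf replicate 3 from the others, and its part in these values was measured only in this way.

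**Figure D2:**
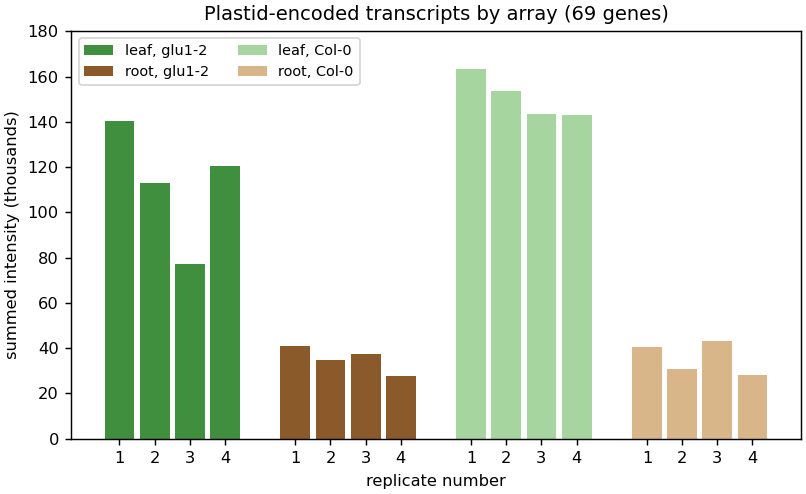
Summed intensity of 69 plastid-encoded genes (vertical axis, linear intensity units divided by 1000) on each of the 16 arrays, numbered 1 to 4 within leaf and root of glu1-2 and Col-0. Leaf replicate 3 of glu1-2, at 77315, is the lowest leaf array of either genotype and still lies above all root arrays, of which the highest is 43050.

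The mitochondrial genome did not show this pattern. Of 16 measured genes 7 were higher in roots, 1 was higher in leaves and 8 did not pass. Over all probe sets 33.7% were higher in roots and 33.8% in leaves. The differences lay between -0.77 and 0.40, with a median of -0.18.

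Most measured regulators of leaf epidermis and leaf polarity were higher in leaves than in roots. EPFL9 (STOMAGEN), a peptide from mesophyll that raises stomatal density, read 230, 249, 272 and 258 in leaves and 19 to 23 in roots (3.55, SE 0.0852, limma, q = 8.66e-13). The 3 transcription factors that act in turn in the stomatal lineage differed by 2.33 (SPCH), 1.09 (MUTE) and 2.19 (FAMA). Leaf intensities of MUTE were 27 to 37, around the background bound. YAB5 and YAB3, which mark the abaxial side of lateral organs, differed by 3.79 and 2.7, while PHV, a factor of the adaxial side, went the other way by -0.31 (leaves 205 to 238, roots 241 to 320; limma, q = 0.00206). The wax ester synthase gene WSD1 was 0.93 higher in leaves at intensities under 32, and GI, a clock gene, was lower in leaves (-0.47).

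Some branches of secondary metabolism were split between the organs. Of the measured genes of aliphatic glucosinolates, BCAT4, which starts the chain elongation of methionine, and UGT74C1 were 1.02 and 1.21 higher in leaves. UGT74B1, which glucosylates the thiohydroximate intermediate, was 0.29 higher. Of 5 flavonoid genes, 4 were higher in roots and 1 in leaves, beside 33.7% and 33.8% of all probe sets. DFR, dihydroflavonol reductase, read 152, 174, 154 and 249 in leaves and 746, 675, 845 and 749 in roots (-2.07, SE 0.143, limma, q = 1.15e-08), and the anthocyanin xylosyltransferase UGT79B1 differed by -1.82. The flavonoid glucosyltransferase UGT78D2 differed by -0.62, and the flavonol rhamnosyltransferase UGT78D1 was 2.29 higher in leaves.

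On the root side, the ER body system of Arabidopsis was a group added after values were seen, so its count is a description. Of its 7 named genes 6 were at least 2-fold higher in roots, against 11.8% of all probe sets, with a median of -3.34. PYK10, the beta-glucosidase stored in these bodies, read 1175, 1025, 1029 and 1484 in leaves and 12683, 12328, 12462 and 9892 in roots (-3.34, SE 0.125, limma, q = 3.3e-11). NAI1, the transcription factor needed for their formation, differed by -2.71 and NAI2, a protein of the bodies, by -3.93. The jacalin-related lectins JAL33, JAL34 and JAL22 differed by -4.08, -3.99 and -3.09. JAL23, another lectin of this family, was 2.83 higher in leaves, at 111 to 246 there and 17 to 32 in roots. The organ difference of none of these 7 genes differed between glu1-2 and Col-0 at q under 0.01, where their median was -3.19.

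Genes of lignin precursors and their polymerisation lay on the same side. This list too was added after values were seen. Of 8 measured genes of monolignol synthesis, storage and oxidation, 7 were at least 2-fold higher in roots, against 11.8% of all probe sets. Their median was -3.19. PRX72, a peroxidase of lignification, read 11, 13, 11 and 15 in leaves and 925, 947, 1029 and 876 in roots, a difference of -6.25 (SE 0.105, limma, q = 9.19e-14) and at least 29.5-fold with the leaf values set to 32. UGT72E2, which glucosylates monolignols, read 49, 59, 50 and 61 in leaves and 1410, 1255, 1410 and 1623 in roots (-4.70, SE 0.1, limma, q = 3.88e-13). Its relatives UGT72E3 and UGT72E1 differed by -3.05 and -1.34, the cinnamoyl-CoA reductase CCR2 by -3.40 and the beta-glucosidase BGLU46, which can release monolignols, by -3.33. PRX52 went the other way by 0.47, at intensities of 21 to 39. Of the 7 class III peroxidases that the annotation names, 5 were higher in roots, against 33.7% of all probe sets. Among them were Prx37 (-4.48), PRX25 (AT2G41480, -3.12), PRX71 (AT5G64120, -3.03) and PRXR1 (-0.40).

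Enzymes that loosen or remodel the cell wall were split, with the larger differences towards roots. Of 18 expansins, 13 were higher in roots (33.7% of all probe sets were), 11 of them at least 2-fold (11.8% of all), and 5 in leaves. EXPA18 and EXPA7, which are specific to root hairs, differed by -3.42 and -2.89. EXPA4 read 468 to 541 in leaves against 2522 to 2945 in roots (-2.46), and EXPB3 626 to 897 against 2969 to 3285 (-2.05). EXPA8 was the only expansin at least 2-fold higher in leaves, with 1182, 1140, 1195 and 1229 there and 128, 145, 161 and 160 in roots (3.00, SE 0.084, limma, q = 2.75e-12). Of 9 xyloglucan endotransglucosylases 6 were higher in roots (33.7% of all probe sets), with XTH18 (-3.73), XTH20 (-3.34), XTH21 (-2.70) and XTH19 (-2.63) in the lead, and 3 in leaves, with XTH16 at 1.44 and XTH32 at 0.70. Of 15 endoglucanases 7 were higher in roots and 4 in leaves (33.7% and 33.8% of all probe sets), and 4 did not pass. Their median was -0.03, and GH9C1 (-3.54) and GH9B13 (-3.04) lay furthest towards roots. Of 3 extensins and proline-rich wall proteins, HRGP1 differed by -3.03 and 2 did not pass. Of 22 genes of the TBL family, which holds acetyltransferases of wall polysaccharides, 13 were higher in roots and 6 in leaves (33.7% and 33.8% of all probe sets), with TBL39 (-3.31) and TBL36 (-3.27) furthest towards roots.

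**Figure D3:**
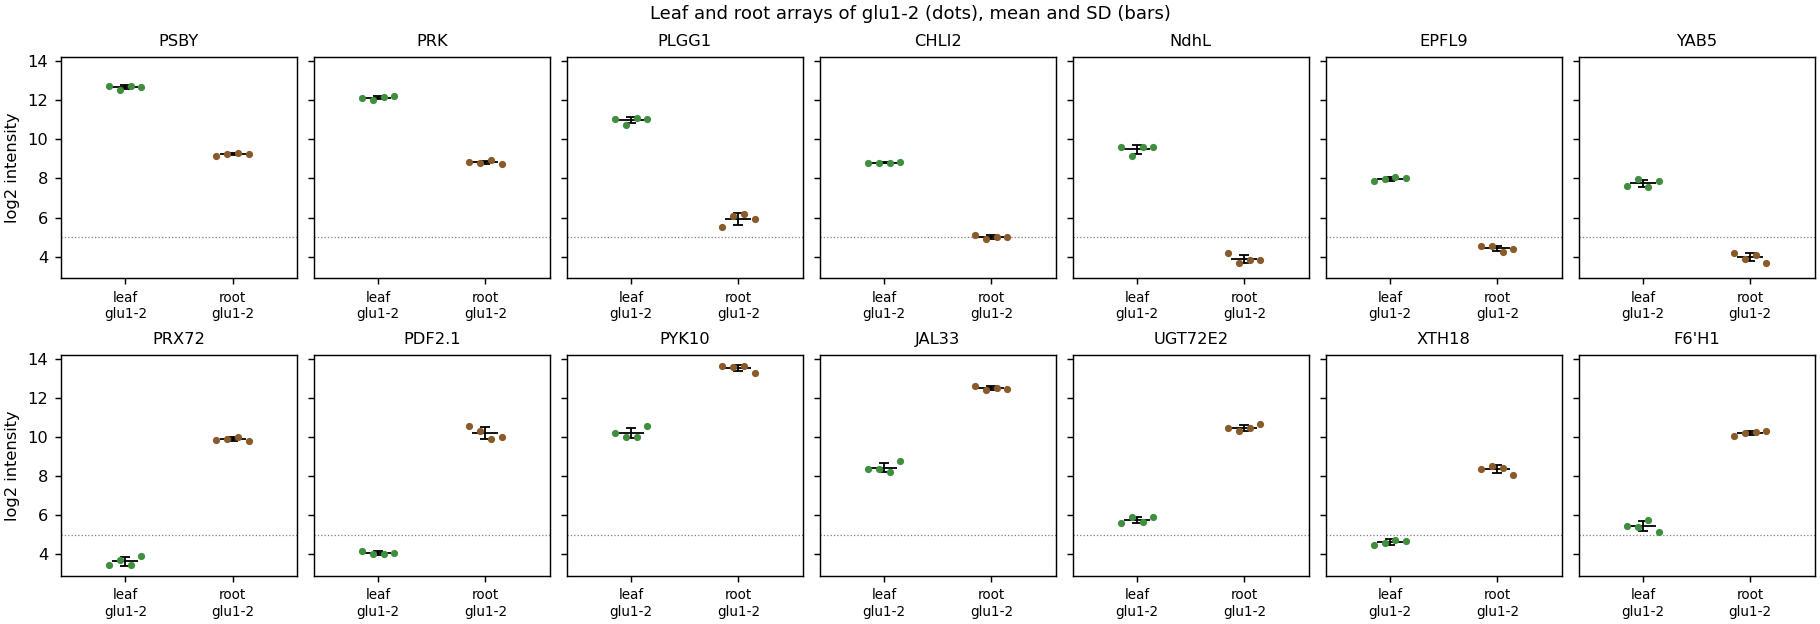
Log2 intensity (vertical axis) on each of the 4 leaf and 4 root arrays of glu1-2 for 14 genes, with the mean and SD as bars and the background bound (log2 of 32) as a dotted line. The upper row holds genes higher in leaves and the lower row genes higher in roots, and for none of the 14 do the leaf and root arrays overlap.

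Other root functions were represented by few named genes. SGN3, the receptor kinase that controls the integrity of the Casparian strip, read 28 to 32 in leaves and 211 to 250 in roots (-2.90, SE 0.0828, limma, q = 3.22e-12). LBD16 and LBD29, which act in lateral root initiation, differed by -2.30 and -0.71, and THAA1, an acyltransferase of the root thalianol pathway, by -3.07. BBM, a factor of the root stem cell niche, differed by -0.72 with leaf arrays at 20 to 23 and root arrays at 31 to 42. ACR4, a receptor kinase of the root cap and of the epidermis, was 0.82 higher in leaves. The xylan synthesis gene IRX10, of the secondary wall list, differed by -0.83.

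Iron genes did not move together. F6'H1, which makes the precursor of the coumarins that roots release under iron deficiency, read 43, 42, 54 and 35 in leaves and 1058, 1179, 1211 and 1265 in roots (-4.77, SE 0.117, limma, q = 1.03e-12). S8H, which acts further along this route, differed by -0.40 with overlapping arrays (32 to 54 in leaves, 43 to 59 in roots; limma, q = 0.00753). PYE, a regulator of the iron response, was 0.22 higher in leaves, and BHLH101, another regulator, did not pass, with leaf arrays at 21 to 30 and root arrays at 18 to 28 (0.10, limma, q = 0.118).

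Defensins showed both of the organ patterns within a family. PDF2.1 read 18, 16, 16 and 17 in leaves and 1512, 1250, 960 and 1022 in roots (-6.12, SE 0.127, limma, q = 3.16e-13; at least 36.5-fold), and PDF2.5 differed by -5.30. The jasmonate-responsive PDF1.2 and PDF1.2b were 3.18 and 3.05 higher in leaves, with PDF1.2 at 203, 221, 312 and 187 in leaves and 25, 26, 24 and 25 in roots. PDF1.2 and PDF1.2b have near-identical transcripts, so their signals may not be separate.

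Of 14 SWEET sugar transporters 5 were higher in leaves, 5 in roots and 4 did not pass, shares near the 33.8% and 33.7% of all probe sets. SWEET1 read 492, 351, 433 and 458 in leaves and 54, 38, 51 and 34 in roots (3.31, SE 0.152, limma, q = 2.26e-10), SWEET4 differed by 2.59, and SWEET11, which exports sucrose towards the phloem, by 1.54. SWEET14 differed by -1.69, at under 32 in leaves. The contrast with Col-0 passed for 7 of the 14, of which 6 shifted towards roots, against 25.8% and 12.8% of all probe sets. The vacuolar transporters SWEET16 and SWEET17 were higher in roots (-1.57 and -0.67).

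Enzymes that conjugate small molecules had members on both sides. Of 47 UDP-glycosyltransferases 25 were higher in leaves and 15 in roots, beside 33.8% and 33.7% of all probe sets, and 7 did not pass. Their differences ran from -4.70 to 4.86, with a median of 0.23. UGT84A3 and UGT76E11 were 4.86 and 4.84 higher in leaves, UGT73C1 by 4.36, and UGT71C1 differed by -4.52. Of 13 glutathione transferases 5 were higher in leaves and 6 in roots, beside 33.8% and 33.7% of all probe sets. GSTU16 and GSTU20 differed by 3.57 and 2.58, and GSTU26 by -3.48. Of 24 cytochrome P450 genes named, mostly of the CYP71B family, CYP71B5 (2.99) and CYP71B37 (-2.51) lay furthest apart. Of 6 WRKY factors 3 were higher in roots, beside 33.7% of all probe sets, and 3 did not pass. WRKY6 differed by -1.26 and WRKY47 by -1.03.

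Among probe sets annotated with 1 gene whose leaf and root arrays did not overlap, the largest differences belonged in part to genes that the sources used here do not describe. Over all probe sets the lowest difference was -7.20, in a probe set without such a name. Towards roots the 10 largest were AT4G30170 (-7.02), AT3G01190 (-6.38), AT5G26260 (-6.32), AT4G38080 (-6.30), PRX72, AT5G26280 (-6.14), PDF2.1, AT1G22440 (-6.10), AT4G15390 (-6.08) and AT2G23540 (-6.07). AT4G30170 read 22, 32, 56 and 26 in leaves and 4042, 4162, 4528 and 3860 in roots, a difference of at least 113-fold (SE 0.223 on the log2 scale, limma, q = 7.8e-12). Of the others, AT4G38080 was at least 68.4-fold higher in roots, AT4G15390 67.8-fold, AT2G23540 58.3-fold, AT3G01190 58.2-fold, AT1G22440 52.0-fold, AT5G26260 45.8-fold and AT5G26280 27.8-fold. Towards leaves they were ECS1 (6.66), AT1G23130 (6.63), AT2G04050 (6.33), AT1G73066 (6.27), AT2G18190 (6.0), AT1G67865 (5.97), AT4G22490 (5.94), AT3G05730 (5.93), AT1G22690 (5.89) and AT5G22580 (5.89). ECS1 read 3012, 2159, 2282 and 2590 in leaves and 28, 23, 27 and 21 in roots, a difference of at least 77.8-fold (SE 0.121, limma, q = 1.54e-13). The bounds were at least 71.9-fold for AT1G23130, 61.0-fold for AT1G67865, 51.2-fold for AT2G04050, 49.3-fold for AT1G22690, 42.9-fold for AT5G22580, 41.8-fold for AT3G05730, 40.8-fold for AT4G22490, 40.4-fold for AT1G73066 and 35.0-fold for AT2G18190. The order by these bounds was not that of the log2 differences. For none of these 10 root genes did the organ difference depart from that of Col-0 at q under 0.01. Of the 10 leaf genes 4 departed, ECS1 and AT1G22690 towards a narrower difference (-0.92 and -0.88 against Col-0) and AT2G04050 and AT2G18190 towards a far wider one.

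Neighbouring genes were sometimes high in the same organ. Of 5745 pairs of adjacent protein-coding genes with both members measured, 9 pairs were both at least 8-fold higher in roots and 4 pairs both at least 8-fold higher in leaves. Of the 12140 genes considered singly, 263 were at least 8-fold higher in roots and 216 in leaves. Whether the pairs were more than these shares would give was not tested. The root pairs included JAL33 with JAL34, Prx37 with AT4G08780 (-3.59), and AT1G52050, AT1G52060 and AT1G52070 in a row (-3.03, -4.09 and -5.90). The leaf pairs included AT2G18180 (3.75) with AT2G18190 (6.0), which differed by 0.36 and -0.01 in Col-0. Probe sets of similar neighbours can share signal, and this was not tested.

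The organ difference of glu1-2 was compared with that of Col-0 by its own contrast over all 16 arrays. In Col-0, 8227 probe sets were higher in leaves (36.9%) and 8506 in roots (38.2%), 75.2% in either direction. Of the probe sets past the threshold in both genotypes, 12421 had the same direction and 624 the opposite one. The contrast itself passed for 5754 probe sets (25.8%). The organ difference kept its sign and was narrower in the mutant for 3290 of them (14.8%), kept its sign and was wider for 949 (4.26%), and reversed, with each genotype past its own threshold, for 624 (2.8%). The reversed count was 267 with intensities under 32 set to 32 and 340 under Benjamini-Hochberg adjustment. For the remaining 891 the signs differed but at least 1 genotype did not pass. Among the narrower probe sets, the genotypes differed more in leaves than in roots for 89.1%, among the wider for 84.8% and among the reversed for 96.8%. The larger difference in leaves was thus shared by these classes, and its share over all probe sets was not computed. A narrower difference was found for 1843 probe sets higher in Col-0 leaves and 1447 higher in Col-0 roots.

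**Figure D4:**
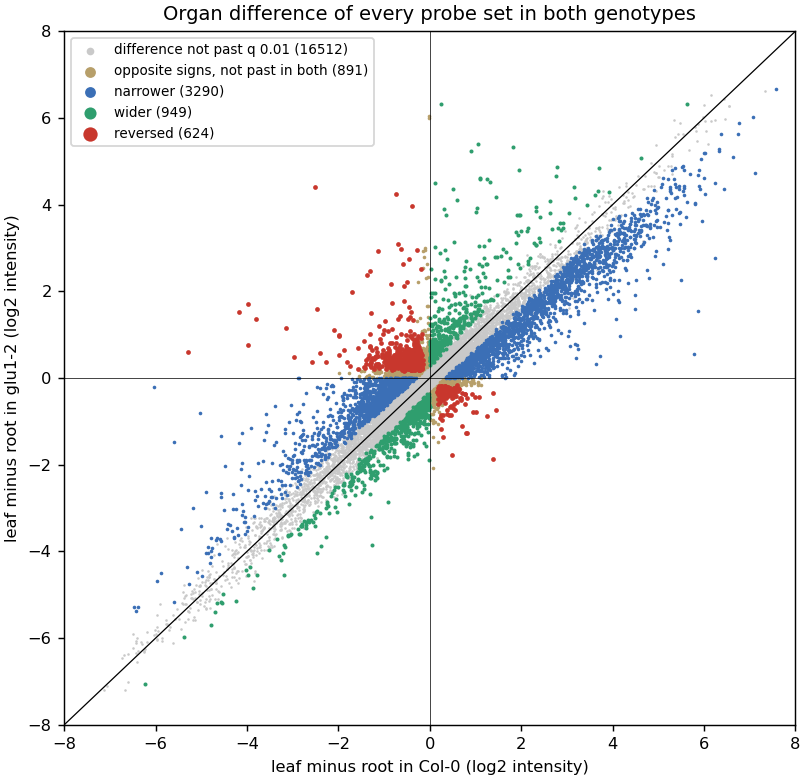
Leaf minus root (log2 intensity) of each of 22266 probe sets in Col-0 (horizontal axis) and glu1-2 (vertical axis), coloured by whether the difference between genotypes passed q under 0.01 and in which direction. Points on the diagonal have the same organ difference in both genotypes; 3290 lie nearer to 0 in the mutant, 949 further from 0, 624 changed sign with each genotype past its threshold, and another 891 had opposite signs with at least 1 genotype not past.

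The photosynthesis genes above kept their direction with a narrower difference. All 4 photosystem genes, 2 of 3 antenna genes, both electron transport genes, all 4 Calvin cycle genes, 5 of 6 photorespiration genes and 5 of 8 tetrapyrrole genes had a narrower organ difference in glu1-2, and none had a wider one. The organ difference of SBPASE was 5.31 in Col-0 and 3.75 in glu1-2, and that of PRK 4.76 and 3.29 (differences of -1.55 and -1.46, limma, q = 3.29e-08 and 3.27e-09). The part of each organ varied between genes. For PRK, glu1-2 minus Col-0 was -0.59 in leaves and 0.87 in roots, for RCA -0.20 and 0.64, and for HPR1 -0.69 and 0.71. For GLDT it was -0.60 in leaves and -0.01 in roots, and for GLYK -0.55 and -0.05. The contrast passed for 25.8% of all probe sets. Of the 4 stomatal genes it passed for EPFL9 (4.81 in Col-0, 3.55 in glu1-2), and it passed for 6 of 18 genes of the NDH complex (33.3%) and for 8 of 69 of the plastid genome (11.6%), all narrower. The 6 of the NDH complex were the nuclear genes NdhL, NdhN, NdhS, CRR28, CRR41 and CRR42, and none of its plastid-encoded ndh genes.

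Several genes were high in leaves of the mutant and under 32 in both organs of the wild type. AT2G18190, annotated as an AAA-type ATPase, read 1135, 991, 1070 and 1313 in leaves and 16 to 19 in roots of glu1-2, and 13 to 20 in either organ of Col-0 (difference between genotypes 6.02, SE 0.161, limma, q = 3.09e-16). AT2G04050, a MATE efflux protein, read 1426, 1341, 1953 and 1932 in mutant leaves and 16 to 24 in the other 3 groups (6.08, SE 0.183, q = 1.9e-15). AT2G04070, another MATE protein, and UGT73C1 had the same shape, with 399 to 475 and 290 to 354 in mutant leaves and at most 25 elsewhere.

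Another set was root-high in Col-0 and much less so in the mutant. GSTU25, a glutathione transferase of the tau class, read 13 to 20 in leaves and 979 to 1088 in roots of Col-0, but 828, 756, 682 and 672 in leaves and 813, 866, 886 and 794 in roots of glu1-2, so that -6.03 became -0.20 (limma, q = 0.0115; difference 5.83, SE 0.146, q = 1.29e-16). GSTU22 went from -5.04 to -0.81. Among the 47 UDP-glycosyltransferases the contrast passed for 21 (44.7%, against 25.8% of all probe sets), 16 of them shifted towards leaves (13% of all probe sets shifted this way). UGT73B4 and UGT73B5 were -3.81 and -3.14 in Col-0 and 1.35 and 1.16 in glu1-2, and these are similar sequences that may share signal.

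Reversed genes were mostly those that became higher in leaves. Of the 624, 476 were higher in leaves of glu1-2 and 148 in its roots, and for 17 the difference was at least 2-fold in each genotype. AT2G41730 read 964, 850, 1081 and 1072 in leaves and 48 to 58 in roots of glu1-2, but 39 to 55 and 62 to 96 in Col-0 (4.25 against -0.73). AT5G46710, a zinc-binding protein, went from -0.27 to 2.95, AT3G45730 from -0.58 to 2.62, AT5G60250, a RING finger protein, from -0.20 to 2.51 and AT5G51440, a mitochondrial small heat shock protein, from -1.37 to 2.37. AT1G17960, a putative threonyl-tRNA synthetase, went from -1.70 to 1.99 with arrays of the organs separated in both genotypes. TBL37 went from -0.74 to 0.95.

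In the other direction, AT5G02230 read 107, 116, 153 and 127 in leaves and 417 to 438 in roots of glu1-2, but 504 to 557 and 320 to 405 in Col-0 (-1.78 against 0.48). AT1G10640 went from 0.82 to -1.27, AT2G32150 from 0.26 to -0.97 and SWEET13, a sucrose transporter, from 1.26 to -0.87. CHIL, the chalcone isomerase-like protein of flavonoid synthesis, went from 0.29 to -0.85, and the expansin-like genes EXLB1 and EXLA2 from 0.46 to -0.65 and from 0.54 to -0.25. The expansin EXPB1 was even between organs in Col-0 (0.07) and root-high in glu1-2 (-2.08).

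**Figure D5:**
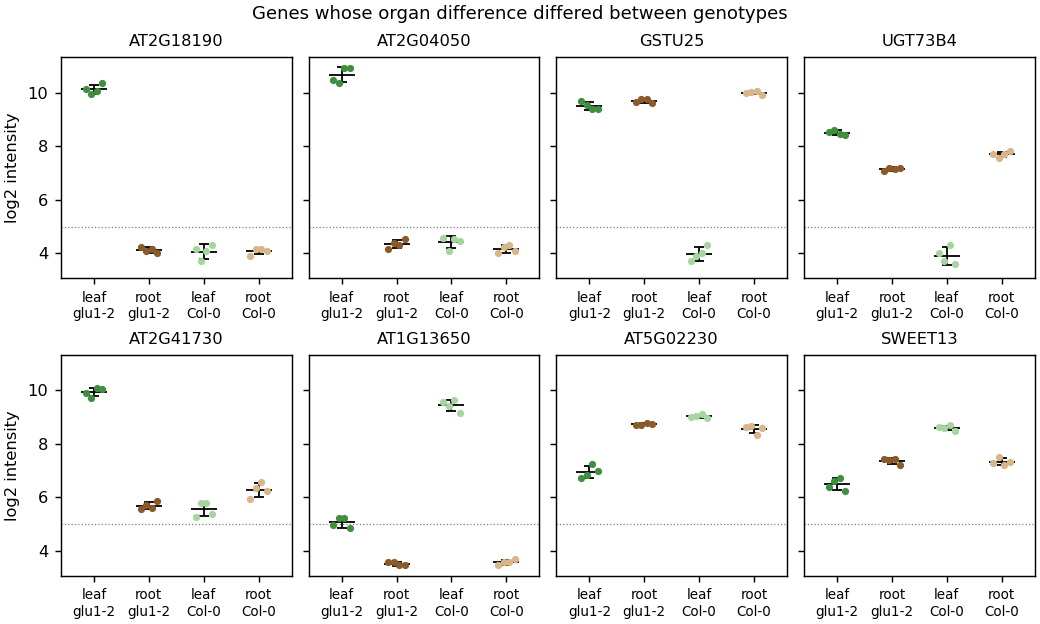
Log2 intensity (vertical axis) on each array of leaf and root of glu1-2 and Col-0 for 8 genes, with mean and SD (n = 4) as bars and the background bound as a dotted line. In all 8 panels the leaf arrays carry most of the difference between genotypes, and the order of leaf and root turns over in UGT73B4, AT2G41730, AT5G02230 and SWEET13.

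The largest narrowing by loss of leaf signal was in AT1G13650, which read 578 to 797 in leaves of Col-0 and 31, 38, 38 and 29 in leaves of glu1-2, with 11 to 13 in roots of either (difference between genotypes -4.31, SE 0.148, limma, q = 1.15e-14). AT1G66100 (-3.46), AT1G62510 (-3.32), AT2G15020 (-3.18) and AT2G32160 (-2.89) followed. AT1G62510 was left nearly even between the organs, at 322, 350, 491 and 420 in leaves and 300 to 340 in roots of the mutant.

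Genes of primary nitrogen assimilation could be named only through the replicate values the authors list for genes higher in glu1-2 leaves than in Col-0 leaves, so this set was chosen by that contrast and its values are a description with no test. Among them, the cytosolic glutamine synthetases GLN1.1 and GLN1.3 remained lower in leaves than in roots of glu1-2. GLN1.1 read 1357 to 1544 against 3030 to 3293, and GLN1.3 1157 to 1376 against 2003 to 2170. The study counts further putative genes of this family, which are not given here. GLU2, the other ferredoxin-dependent glutamate synthase gene, read 506, 441, 629 and 530 in leaves and 1153, 1138, 1228 and 1197 in roots. The NADH-dependent glutamate synthase GLT1 read 1779 to 2012 in leaves against 2229 to 2367 in roots, and the root-type ferredoxin FD3 830 to 1049 and 2566 to 2858. NRT2.5, the only nitrate transporter named by the annotation, was at 12 to 16 in both organs.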

How the data were processed

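Biotin-labelled RNA of 16 samples was hybridised to Affymetrix ATH1 arrays. The deposited values are intensities that the authors computed with RMA, which corrects background, normalizes between arrays and summarises the probes of a probe set. They are linear values given as whole numbers. Here log2 was taken, 13 control probe sets were left out and 22266 were tested. Leaf and root of glu1-2 were compared with limma 3.58.1 in R 4.3.3 over the 8 mutant arrays, and the organ differences of the genotypes by a contrast over 16 arrays, with Storey's q under 0.01. Both fits were tested on simulated data with known differences. A microarray gives no read depth, so the number of arrays limits the precision.

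The platform annotation gave 1 gene to 13216 probe sets, several to 491 and none to 8559. Another 563 were named by matching the leaf values of 8 arrays, within 0.51 intensity units, to replicate values that the authors list by locus, and these were kept out of list counts. The targeted gene was identified as stated in the report. Columns of the authors' own comparisons were not used.

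The genes named were the 10 largest differences each way with separated arrays, the members of the lists, and the 5 largest each way among genes that departed from Col-0 or reversed. Members and lists were chosen with earlier results of these data known. The lists of the NDH complex, expansins, xyloglucan endotransglucosylases, ER body, defensins, SWEET, TBL, endoglucanases and monolignols, and the neighbouring genes, AT1G17960, AT2G04070, UGT73B5 and GSTU22, were chosen after values were seen. The alternatives were other adjustments, thresholds, scalings, filters, floors and moderation, a replicate block, all arrays in 1 fit, and leaving out each array.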

Additional observations from a re-analysis of the deposited data

Results flagged for a closer look

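Intensities of 163 named genes were examined in the leaf and root groups of glu1-2, 326 groups of 4 arrays, for an array far from the other 3. Chance alone would mark about 1 group in 20, and 14 were marked. On leaf replicate 2 these were AT1G67865 (1627), NdhL (572), PORB (2902) and PRXR1 (7699), all lower than on the other leaf arrays, and Prx37 (18), higher. On leaf replicate 3 they were GLDT (2820) and the plastid gene ndhA (401), both lower. On root replicate 2 it was AT4G15390 (2733), lower. On root replicate 3 they were TBL37 (257) and Prx37 (412), both higher. On root replicate 4 they were PYK10 (9892) and SWEET13 (147), lower, and MUTE (21) and AT5G60250 (30), higher.

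For 89 of the genes, the organ difference in glu1-2 departed from that in Col-0 by the contrast over 16 arrays in limma (q under 0.01). Of all probe sets 25.8% departed. Some of the genes were named for a large departure or a reversal in this same contrast. Their count is therefore raised by that choice and is a description only. The values below are the difference in glu1-2 minus that in Col-0, on the log2 scale.

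Among photosynthesis genes all were negative. They were PSBY (-0.91), PSAN (-0.85), PSAE1 (-0.73), PSBW (-0.55), LHCB4.2 (-0.93), LHCB4.1 (-0.53), ATPC1 (-0.84) and PGRL1B (-0.80). In the Calvin cycle they were SBPASE (-1.55), PRK (-1.46), RCA (-0.84) and PGK2 (-0.55). In photorespiration they were HPR1 (-1.40), PLGG1 (-0.87), GDCH3 (-0.86), GLDT (-0.59) and GLYK (-0.50). In tetrapyrrole and carotenoid synthesis they were CHLM (-1.08), PORB (-0.97), HEME2 (-0.85), CHLI2 (-0.82), HEME1 (-0.81) and LYC (-0.59). Of the NDH complex and the plastid genome they were NdhN (-1.34), NdhL (-1.11), NdhS (-1.01), CRR42 (-0.89) and psbD (-1.60).

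Conjugating enzymes and related genes were mostly positive, with GSTU25 (5.83), UGT73B4 (5.16), UGT73B5 (4.3), GSTU22 (4.23), UGT73C1 (3.86), UGT84A3 (2.08), UGT72E1 (1.34), UGT76E11 (1.13) and GSTU16 (0.65), while UGT78D1 (-0.60) and CYP71B37 (-0.49) were negative. Wall and lignin genes went both ways, with XTH19 (2.27), TBL37 (1.69), AT5G64120 (1.21) and BGLU46 (0.72) positive and EXPB1 (-2.15), XTH32 (-1.31), EXLB1 (-1.11), EXPA8 (-0.82), EXLA2 (-0.79), CCR2 (-0.67), EXPA18 (-0.63) and EXPB3 (-0.57) negative. The sugar transporters were SWEET1 (1.37), SWEET13 (-2.13), SWEET16 (-1.06), SWEET11 (-0.92) and SWEET17 (-0.67).

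The remaining genes with a known role were PDF1.2 (1.88), PDF1.2b (1.87), S8H (1.34), WRKY47 (0.77), WRKY6 (0.71) and GI (0.60) on the positive side, and BHLH101 (-1.55), WSD1 (-1.33), EPFL9 (-1.25), CHIL (-1.14), SGN3 (-1.13), ECS1 (-0.92), PYE (-0.64) and THAA1 (-0.60) on the negative side. Of the genes given by locus, AT2G04050 (6.08), AT2G18190 (6.02), AT2G41730 (4.98), AT2G04070 (4.37), AT5G51440 (3.74), AT1G17960 (3.69), AT2G18180 (3.39), AT5G46710 (3.21), AT3G45730 (3.20) and AT5G60250 (2.7) were positive. AT1G13650 (-4.31), AT1G66100 (-3.46), AT1G62510 (-3.32), AT2G15020 (-3.18), AT2G32160 (-2.89), AT5G02230 (-2.26), AT1G10640 (-2.09), AT2G32150 (-1.23) and AT1G22690 (-0.88) were negative.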

How the results depend on the processing

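With intensities under 32 set to 32, 4418 probe sets were higher in leaves and 5831 in roots of glu1-2, 4440 in leaves of Col-0, and 267 reversed. With only the probe sets of exactly 1 gene, and so fewer tested, 4247 were higher in leaves and 3981 in roots of glu1-2, 1264 and 1350 at least 2-fold, 4819 and 4565 in Col-0, and 3029 departed from Col-0, of which 1689 were narrower, 473 wider and 343 reversed. A q under 0.05 gave 1688 wider and 1239 reversed, and Benjamini-Hochberg adjustment 340 reversed. The targeted gene differed by 0.65 with arrays shifted to the same median and 0.69 without root replicate 4 (exact permutation p = 0.0286 for each). Its probe set was chosen by its values, so these tests are a description. With that shift, 9983 were higher in leaves and 6974 in roots, and the median over all probe sets was 0.13, against 0.05.

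Leaving out each array gave 6902 to 7482 higher in leaves and 7120 to 7592 in roots, 2532 to 2562 and 2588 to 2635 at least 2-fold, 7586 to 8182 and 8114 to 8500 in Col-0, 5169 to 5982 departing, 2956 to 3358 narrower, 817 to 999 wider and 568 to 680 reversed. It gave 32 leaf list members, 8 to 9 root list members, and 0.49 to 0.69 for the targeted gene. BHLH101 ranged from -0.01 (without root replicate 4) to 0.20 (without root replicate 3).

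Leaf and root arrays of glu1-2 with the same number correlated at 0.093, 0.133, 0.035 and -0.013 in their deviations, so the numbers were not taken to pair the samples. With the replicate block, 7535 were higher in leaves and 7517 in roots, 2543 and 2618 at least 2-fold, 8197 and 8463 in Col-0, and 5586 departed, with 3202 narrower, 913 wider and 634 reversed. It changed 0 calls of named genes. Of 163 named genes, 143 kept their call in every setting. Over 2930 pairs of gene and setting, 41 lost the call, 12 gained it and 1 changed sign. Intensities under 32 limit the smaller value of many large differences.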
